A study of Mus musculus with 2 samples.

Results

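The mitochondrial genome of the mouse was described through its annotated genes, which were chosen by a symbol that begins with mt-. This rule found 37 of 55536 annotated genes, and all 37 lie on chromosome M: 2 ribosomal RNA (rRNA) genes, 13 protein-coding (mRNA) genes and 22 transfer RNA (tRNA) genes. Levels came from total RNA-seq of the gastrocnemius, a calf muscle, of 2 male pups of the hybrid strain B6CASTF1/J, aged 4 days, with 1 library from 300 ng RNA per pup. The labels give the pups separate numbers but the same donor entry, and place both in a single group as replicates 1 and 2. No treatment or mutation is named. Beyond the strain name, the labels hold no statement of which parent strain was the mother and so gave the pups their mitochondrial genome.

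Mitochondria keep a small circular genome, inherited from the mother, in many copies per cell. It encodes the rRNAs and tRNAs of the mitochondrial ribosome's own translation system and a few membrane subunits of the respiratory chain (complexes I, III and IV) and of ATP synthase (complex V). All other subunits come from nuclear genes. Both strands are transcribed as long precursors, from which the tRNAs are cut out and so release the rRNAs and mRNAs between them, and a muscle fibre depends on the resulting complexes for sustained contraction. In whole muscle, fewer mitochondria per fibre, fewer fibres and less RNA per mitochondrion cannot be told apart.

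The annotation shows how tightly the genes are packed. Along the numbering of chromosome M, from mt-Tf to mt-Tp, 21 of 36 neighbouring pairs of genes touch or overlap. The longest gap among these pairs is 32 nt. The stretch that closes the circle, from the end of mt-Tp (chrM:15422) back to mt-Tf, is not among them and was not measured. Of the 12 mRNA genes on the heavy-strand transcript, 9 have a tRNA gene as their upstream neighbour, on either strand. For mt-Co1 and mt-Cytb that neighbour, mt-Ty or mt-Te, lies on the other strand. Several short stretches of the mm10 genome show this packing. They are mt-Tv, the valine tRNA gene that fills the space between both rRNA genes (chrM:1025-1093), the end of mt-Atp8 (chrM:7927-7969) and the end of mt-Nd4l (chrM:10144-10173). In the last pair, the capitals mark the start codon of the next gene, mt-Atp6 or mt-Nd4, which begins inside the gene shown. All are written 5′ to 3′ in the sense of the transcript, with T for U, from the GENCODE M21 transcripts.
mt-Tv: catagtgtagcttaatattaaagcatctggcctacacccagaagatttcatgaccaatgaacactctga
mt-Atp8 end: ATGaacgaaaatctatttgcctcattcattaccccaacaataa
mt-Nd4l end: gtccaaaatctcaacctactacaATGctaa
The overlap is 43 nt for mt-Atp8 and mt-Atp6 and 7 nt for mt-Nd4l and mt-Nd4, so a read within it fits both genes. Among the 13 mRNA genes 9 start with ATG, and mt-Co3, mt-Nd4 and mt-Cytb end 1 base, a T, past their last whole codon.

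The libraries held 35281187 and 32301531 expected counts in annotated genes. An expected count is a number of reads estimated by sharing out reads that fit several genes, and TPM, a level normalised for length and depth, divides it by the length over which a read can start, here the gene's length less 99 nt. Markers of the labelled tissue were high: all 7 skeletal fibre markers were above 1 TPM and summed to 42197 and 39248 TPM. Of 4 cardiac markers only Myh6 was above 1 TPM in both libraries, at 48.2 and 60.4 TPM. Tnni3 was at 1.24 and 0.35 TPM, the heart hormone gene Nppa at 0, and Myl7 at 0.07 and 0 TPM. All 7 epidermal markers were higher in replicate 2, with sums of 10.7 and 982 TPM. Sums for Schwann cells were 233 and 520 TPM and for fat 222 and 355 TPM, where the brown fat gene Ucp1 stood at 0.33 and 0.69 TPM. Fibroblast markers summed to 5036 and 4981 TPM and red cell markers to 676 and 788 TPM. Endothelial markers summed to 136 and 138 TPM and macrophage markers to 51.6 and 59.4 TPM. Values are mean ± SD of both libraries (n = 2) unless a replicate is named. There is no second group. With 2 values an exact two-sided test by flipping signs reaches p = 0.5 at best, and none was run.

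Genes of the mitochondrial genome took 9.85% of expected counts in replicate 1 and 9.15% in replicate 2 (9.50% ± 0.493). Most of this was ribosomal: the 2 rRNA genes held 75.7% ± 0.722 of the mitochondrial counts and the 13 mRNA genes 24.3% ± 0.722. The tRNA genes held none. As a share of the whole library, mitochondrial rRNA made up 7.20% ± 0.442 and mitochondrial mRNA 2.30% ± 0.0511. The spike-in profile named in the labels is one for ribosome-reduced libraries. Whether and how rRNA removal reached the mitochondrial rRNAs is not given in the sources used here. Hence the ratio of rRNA to mRNA describes these libraries.

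The larger rRNA, mt-Rnr2 (16S, chrM:1094-2675), which forms the large subunit of the mitochondrial ribosome, had 1950742 and 1645102 counts, or 44961 and 40700 TPM. The small-subunit rRNA, mt-Rnr1 (12S, chrM:70-1024), had 698152 and 578237 counts, or 27878 and 24784 TPM. Per length, mt-Rnr2 was 1.63-fold higher than mt-Rnr1, a log2 ratio of 0.70 ± 0.018. The ratio was nearly the same in both pups, at 1.61 and 1.64. Both genes lie in the same precursor, separated by mt-Tv. In a second deposited quantification, made from the read files themselves (here the direct quantification), the log2 ratio was 0.85 ± 0.017.

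No tRNA gene had a count in either library, by either quantification. This holds for 22 of 22, 14 in the sense of the heavy-strand transcript and 8 on the other strand. The tRNA genes are 59 to 75 nt long, and the effective length of each in the alignment-based table is 0. The shortest, mt-Ts2 (chrM:11613-11671), a serine tRNA gene, is shown whole as an example of a sequence that fell under this limit.
mt-Ts2: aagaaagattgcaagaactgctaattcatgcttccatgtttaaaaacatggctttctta
The zero is shared with every other short gene: all 2398 annotated genes under 100 nt have an effective length of 0 and 0 have counts, and of 2451 entries under 100 nt in the second quantification 0 have counts. The tRNA values therefore hold no measurement of tRNA abundance, and no limit from a count of 0 is given for them.

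The 13 mRNA genes summed to 31149 and 28803 TPM (29976 ± 1659). As deposited, mt-Co1 (chrM:5328-6872), the catalytic subunit of cytochrome c oxidase (complex IV), stood highest at 7026 and 6990 TPM. By mean TPM it ranked 3 among 22028 protein-coding genes. The next were mt-Cytb (chrM:14145-15288), cytochrome b of complex III, at 3864 and 3661 TPM, and mt-Nd1 (chrM:2751-3707), a membrane subunit of complex I, at 3656 and 3527 TPM. The ranges of these 3 genes over both libraries do not overlap, but the gap between mt-Cytb and mt-Nd1 was only 1.19 times the larger SD.

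Both ATP synthase subunits followed. mt-Atp8 (chrM:7766-7969), a short peripheral subunit, had 3395 and 2616 TPM, and mt-Atp6 (chrM:7927-8607), part of the proton channel, had 2527 and 2181 TPM. Then came the other complex I subunits: mt-Nd4l at 2200 and 2000 TPM, mt-Nd4 at 2145 and 1940 TPM, mt-Nd5 at 1839 and 1855 TPM, mt-Nd3 at 1505 and 1533 TPM and mt-Nd2 at 1464 and 1286 TPM. Among neighbours in this order, mt-Atp6 and mt-Nd4l overlapped between libraries, and so did mt-Nd4l and mt-Nd4. The other 2 cytochrome c oxidase subunits stood far below mt-Co1, mt-Co3 (chrM:8607-9390) at 1186 and 729 TPM and mt-Co2 (chrM:7013-7696), which carries the copper site that accepts electrons from cytochrome c, at 52.4 and 68.4 TPM. The lowest levels in the order were thus mt-Co3, then the complex I subunit mt-Nd6 at 290 and 416 TPM, then mt-Co2, and none of these 3 overlapped another.

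Several of these genes have near-identical nuclear copies, among which reads had to be shared out by estimation. A stretch of chromosome 1, 24611535-24616197 on the minus strand in mm10, holds 7 annotated pseudogenes that follow the mitochondrial order from the end of mt-Co1 to the first part of mt-Nd4. Such nuclear copies of mitochondrial DNA arise when pieces of the genome are inserted into chromosomes. Gm28661 (ENSMUSG00000102070.1) is identical to mt-Co2 (ENSMUSG00000064354.1) over all 681 of its bases, and its annotated end lacks only the last 3 bases of mt-Co2. The ends of both are shown because these 3 bases, in capitals, are all that tells the annotated sequences apart (chrM:7637-7696 and chr1:24614885-24614941, minus strand).
mt-Co2: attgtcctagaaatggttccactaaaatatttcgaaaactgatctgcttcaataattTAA
Gm28661: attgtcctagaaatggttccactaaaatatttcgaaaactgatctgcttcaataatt
Likewise Gm10925 is identical to mt-Atp6 over 678 bases, Gm28437 to mt-Co3 over 783, Gm10222 to mt-Nd4l over 294 and Gm28439 to the first 876 of the 1378 bases of mt-Nd4.

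The other 2 copies differ by a single base each. Within the aligned 483 bases, Gm29216 differs from mt-Co1 by A1066T, and Gm28438 differs from mt-Nd3 by T3C over 345 bases, with positions counted from 1 at the 5′ end of the mitochondrial gene. The first 9 bases of Gm29216 lie outside the alignment. The differing base is in capitals, and the windows are chrM:6373-6413, chr1:24616165-24616197, chrM:9459-9481 and chr1:24613097-24613119.
mt-Co1: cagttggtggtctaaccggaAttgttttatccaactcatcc
Gm29216: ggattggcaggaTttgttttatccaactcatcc
mt-Nd3: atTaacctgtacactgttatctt
Gm28438: atCaacctgtacactgttatctt

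The estimate gave most reads of the identical pairs to the nucleus for 3 genes and almost none for the others. mt-Co2 kept 898 and 1090 counts while Gm28661 received 153894 and 137739, so the copy held 99.3% ± 0.145 of the counts of the pair. Gm28437 held 85.0% ± 4.81 of the counts shared with mt-Co3, and Gm10925 held 73.0% ± 0.480 of those shared with mt-Atp6. In contrast, Gm10222 held 0.77% ± 1.05 of the counts shared with mt-Nd4l, and Gm28439, although identical to mt-Nd4 where they align, had 0 counts. Of the copies with a differing base, Gm29216 held 10.7% ± 0.482 beside mt-Co1 and Gm28438 had 0 counts beside mt-Nd3. These shares are of all counts of gene and copy, although Gm29216 aligns to only 483 of the 1545 bases of mt-Co1. Per length, Gm29216 stood at 3219 and 2983 TPM beside 7026 and 6990 TPM of mt-Co1. Gm28439 likewise aligns to only part of mt-Nd4. Among identical copies that align to nearly the whole gene, shares ran from 0.77% to 99.3%, so identity of sequence alone did not order them.

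**Figure D1:**
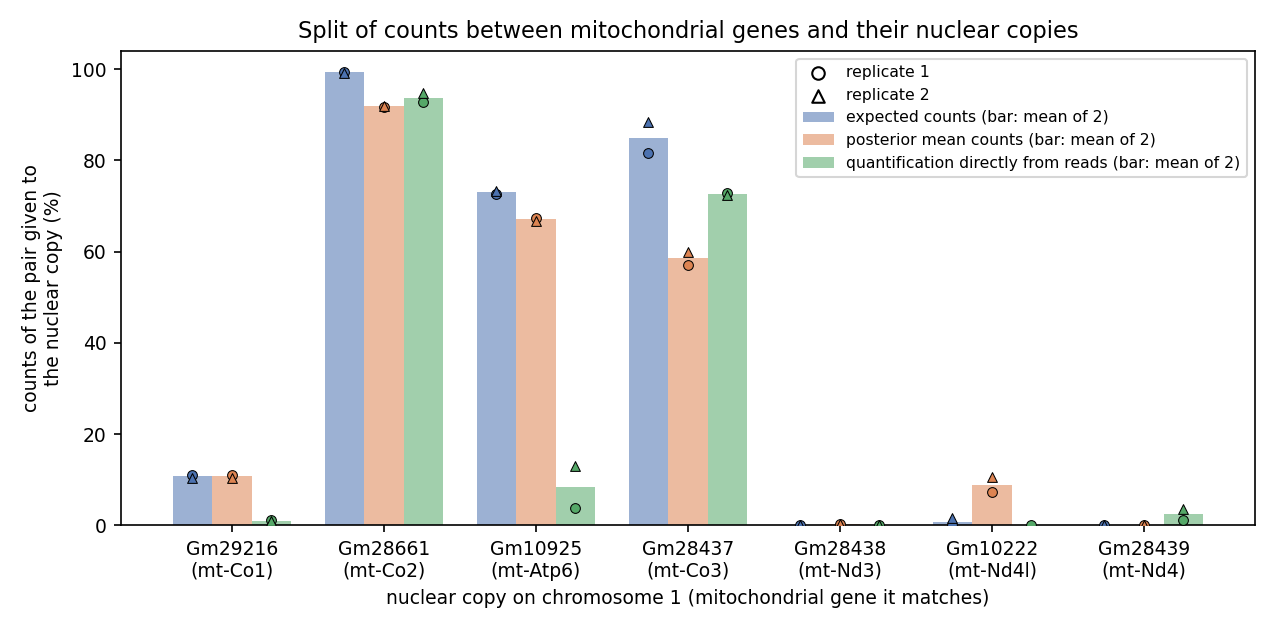
Percent of the counts of each pair, mitochondrial gene and nuclear copy, that was given to the copy, for the 7 copies on chromosome 1 in mitochondrial order; bars are means of 2 libraries, points the libraries, and colours the 3 deposited estimates (Gm10222 has no value in replicate 2 in the direct quantification, where the pair had no counts). The expected counts place 99.3% at Gm28661 and 0 at Gm28438 and Gm28439, and the estimates differ most at Gm10925.

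The deposited posterior of the same quantification, which averages over possible ways of sharing the reads, showed where the split was uncertain. The posterior mean of mt-Co2 was 12754 and 11304 counts with a posterior SD of 23.8% and 22.1% of that value, and the share of Gm28661 was 91.8%. For mt-Co3 the posterior mean was 55337 and 46830 counts with an SD of 10.2% and 9.21%, and the share of its copy was 58.5%. The SD of mt-Atp6 was 5.10% and 8.59%, and that of mt-Nd4l 4.04% and 4.15%. For the 11 other rRNA and mRNA genes it was at most 0.346%. The quantification made directly from reads shared the same reads differently again: copies held 93.7% ± 1.37 beside mt-Co2 and 72.6% ± 0.219 beside mt-Co3, but 8.39% ± 6.42 beside mt-Atp6 and 1.06% ± 0.183 beside mt-Co1.

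By alignment of all transcripts, 54 annotated nuclear pseudogenes matched a mitochondrial gene, and 11 did so over at least 80% of their length with at least 95% identity. Those 11 held 40.7% ± 0.205 of the summed expected counts of the copies and the 9 mitochondrial genes they match. That sum includes parts of mt-Nd2, mt-Nd4 and mt-Nd5 that lie outside their close copies. The 4 copies on chromosomes other than 1 had at most 63.2 counts in a library. Whether any of the reads came from nuclear transcripts was not tested. Each gene is therefore also given with the counts of its close copies added, which is the level of the sequence wherever it was transcribed.

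With copies added, the order of the mRNAs changed at the top. mt-Co2 then stood at 9047 and 8711 TPM, 147-fold above its own deposited level, mt-Atp6 at 9254 and 8190 TPM (3.71-fold), mt-Co1 at 7902 and 7802 TPM (1.12-fold) and mt-Co3 at 6431 and 6261 TPM (6.63-fold). The first pair overlapped between libraries. The 4 genes lie next to each other in the genome, with mt-Atp8 and 3 tRNA genes among them, and with copies they stood above every other mRNA. The rest kept their values within 1.01-fold, so that mt-Nd6 was lowest. The summed mRNA level with copies was 51410 ± 2237 TPM.

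**Figure D2:**
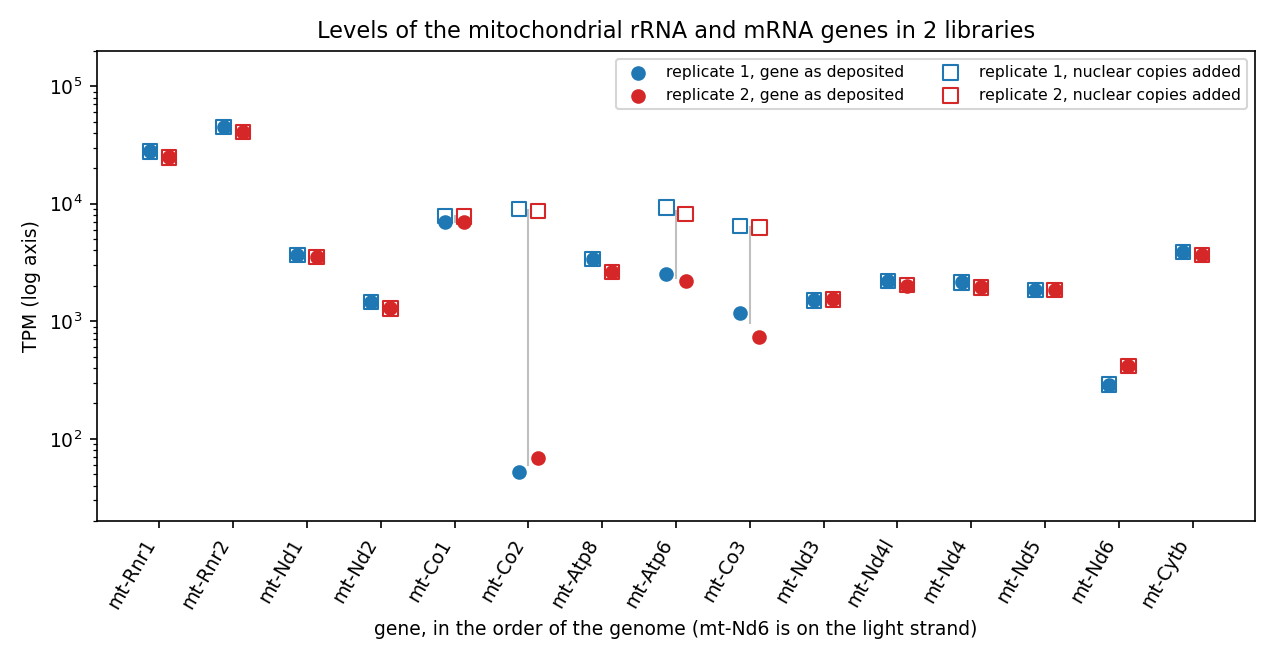
TPM on a log axis of the 2 rRNA and 13 mRNA genes in genome order; filled circles are deposited values, open squares the values with nuclear copies added, blue replicate 1 and red replicate 2, and grey lines join the means. The values with copies leave the deposited ones at mt-Co2 (60.4 against 8879 TPM), mt-Co3 and mt-Atp6, and slightly at mt-Co1.

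By respiratory complex, the 7 complex I genes made up 42.8% ± 1.09 of the deposited mRNA level, the 3 complex IV genes 26.8% ± 0.359, the 2 complex V genes 17.8% ± 1.67 and mt-Cytb of complex III 12.6% ± 0.215. With copies added complex IV was first at 44.9% ± 1.12, then complex I at 24.99% ± 0.384, complex V at 22.8% ± 1.54 and complex III at 7.32% ± 0.0387. By the direct quantification complex IV held 33.9% ± 0.862 and complex I 30.8% ± 0.988. The leading complex thus differed between these estimates. The direct quantification listed the complex I genes mt-Nd3 and mt-Nd4l at means of 4.54 and 0.665 TPM and mt-Atp8 of complex V at 0. The part of these low values in its shares was not tested.

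mt-Nd6 is the only mRNA gene annotated on the other strand, so it is read from the opposite precursor. Its base composition is the mirror of the rest: 28.1% of its sense bases are G and 5.97% C, whereas all 12 heavy-strand mRNAs have more C (22.1% to 29.97%) than G (5.88% to 16.1%). Its level was below that of the median heavy-strand mRNA, at 2172 and 1970 TPM in replicates 1 and 2, by log2 ratios of -2.91 and -2.24 (-2.57 ± 0.47), or 5.96-fold. With copies added the log2 ratio was -3.24 ± 0.51, and by the direct quantification -2.03 ± 0.54. The median in the direct quantification, 2659 TPM, includes mt-Atp8, mt-Nd4l and mt-Nd3, which it lists at means of 0 to 4.54 TPM. mt-Nd6 overlaps the end of mt-Nd5 on the opposite strand. The sources used here do not say whether counting used strand.

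The mean of both rRNAs stood 16.7-fold above the median heavy-strand mRNA (log2 ratio 4.06 ± 0.0090), and 10.5-fold with copies added. Among heavy-strand mRNAs, all cut from the same precursor, deposited levels ran from mt-Co1 down to mt-Co2, and mt-Co1 was 5.11-fold above mt-Nd2, which has no copy that took counts. Level did not follow the distance from the start of the transcript: Spearman's rho across the 12 genes was -0.014 in each library, and -0.20 and -0.22 with copies added. These genes share their libraries and are not independent, so rho is a description.

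mt-Nd4l and mt-Nd4 share a mature mRNA, as do mt-Atp8 and mt-Atp6, so the levels within each pair can be set side by side. mt-Nd4l and mt-Nd4 stood at nearly the same level per length, with a log2 ratio of 0.04 ± 0.0051, but this turned to -0.44 with counts divided by full length and to -0.083 with posterior means. mt-Atp8 stood above mt-Atp6 as deposited (log2 ratio 0.34 ± 0.12), but below it with copies added (-1.55 ± 0.14) and with counts divided by full length (-0.39 ± 0.12). The effective length of mt-Atp8 is 105 nt of 204, so this ratio depends on the length used.

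Short genes lost their counts in the direct quantification. mt-Atp8 (204 nt) was listed at 0 in both libraries, mt-Nd4l (297 nt) at 2 and 0 counts, and mt-Nd3 (348 nt) at 9 and 7 counts, against 10402 or more expected counts of mt-Nd3 by alignment. For longer genes, with copies counted in both, the direct counts were 61.4% ± 6.81 of the alignment-based counts at mt-Nd6 (519 nt), 55.7% ± 0.709 at mt-Atp6 (681 nt) and 74.7% ± 0.0277 at mt-Co3 (784 nt). They were 80.8% ± 0.120 at mt-Rnr1 (955 nt), between 91.4% and 96.9% for the 5 mRNAs over 1000 nt and 105% ± 0.0678 at mt-Rnr2. Other genes with a single transcript also lost counts at short lengths. Among those averaging at least 100 counts, 100 of 100 genes between 100 and 350 nt had a direct count under 0.1 of the alignment-based one. So did 72 of 177 between 350 and 700 nt, 10 of 117 between 700 and 1000 nt and 15 of 321 between 1000 and 2000 nt. The median ratio between 350 and 700 nt was 0.258, below the shares of mt-Nd6, mt-Atp6 and mt-Co2 (73.9% with copies). Levels of mt-Atp8, mt-Nd3 and mt-Nd4l therefore rest on the alignment-based table alone.

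**Figure D3:**
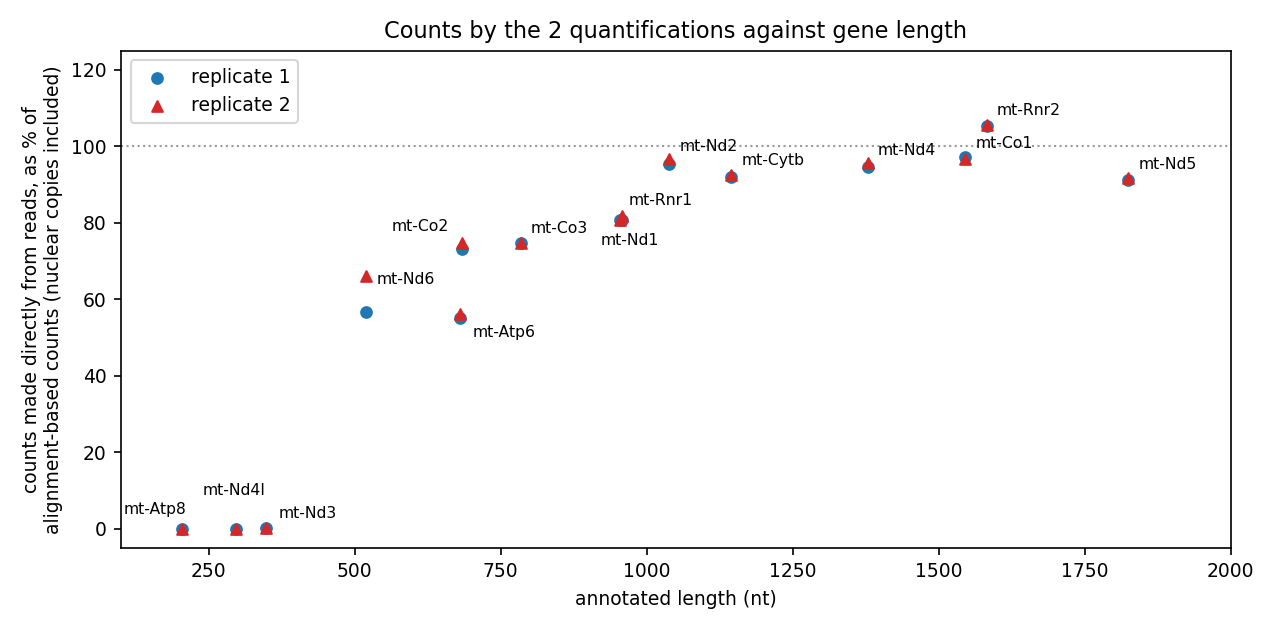
Counts made directly from reads as a percent of alignment-based counts, nuclear copies included in both, against annotated length in nt for the 15 rRNA and mRNA genes; circles are replicate 1 and triangles replicate 2. The 3 genes up to 348 nt lie at 0.0821% or less, and the 6 genes over 1000 nt between 91.1% and 105%.

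Most mitochondrial mRNAs stood above the nuclear genes whose products join them in the same complexes. The median mitochondrial mRNA was at 2042 ± 144 TPM and the median of 76 nuclear subunit genes at 184 ± 2.87 TPM, a log2 ratio of 3.47 ± 0.080. The highest nuclear subunit was Atp5b, the catalytic beta subunit of ATP synthase, at 1320 ± 85.8 TPM, and 10 of 13 mitochondrial mRNAs exceeded it (12 of 13 with copies added). The exceptions as deposited were mt-Co3, mt-Nd6, with 8 nuclear subunits above it, and mt-Co2, with 71 of 76 above it. Nuclear subunits ranged from Ndufb3 (46.9 ± 0.460 TPM) to Ndufa3 (266 ± 4.59 TPM) in complex I, which stood at 103.6 and 126 TPM by the direct quantification, and from Uqcrfs1, the Rieske iron-sulphur protein (122 ± 7.35 TPM), to Uqcrh (292 ± 10.6 TPM) in complex III. In complex IV they ranged from Cox4i2 (2.09 ± 0.106 TPM) to Cox4i1 (525 ± 18.9 TPM), which are alternative forms of the same subunit. In complex V the lowest was Atp5g2, a ring subunit, at 11.1 ± 1.36 TPM by alignment but 465 TPM by the direct quantification.

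The genes listed for mitochondrial transcription and RNA processing were far lower, with a median of 8.59 ± 0.622 TPM over the 29 of 31 found. The list also holds Polg, Twnk and Ssbp1, which act in the replication of mitochondrial DNA. Slirp, which binds and stabilises mitochondrial mRNAs with Lrpprc, was highest in the alignment-based table at 67.0 ± 0.389 TPM, then Grsf1, a protein of the RNA granules where precursors are processed, at 49.8 ± 4.65 TPM. By the direct quantification their order was the reverse, with Grsf1 at 107 TPM and Slirp at 65.3 TPM. The termination factor genes Mterf1a (1.99 ± 0.0990 TPM) and Mterf1b (1.05 ± 0.0707 TPM) were lowest.

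Between the pups, most mitochondrial genes differed little. After scaling by the trimmed mean of M-values (TMM), the log2 ratio of replicate 2 to replicate 1 was taken for the 15 rRNA and mRNA genes, all with 100 or more counts on average. The median ratio was -0.16 against -0.010 over all 12421 genes tested, and 12 of 15 were lower in replicate 2, where 51.9% of all genes were. With ERCC spike-ins as the scale mt-Nd1, mt-Co1 and mt-Nd5 turned to higher, and with total counts mt-Co1 and mt-Nd5 did. Summed rRNA had a log2 ratio of -0.17 and summed mRNA one of -0.088. The 75 nuclear subunit genes tested had a median of -0.13. The 7 skeletal fibre markers were all lower in replicate 2 as well, with a median of -0.14, and their part in the mitochondrial ratios was not tested.

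A log2 ratio beyond 0.32 in size was seen for 4 of 15 members, beside 13.7% of all genes tested. Higher in replicate 2 were mt-Nd6 and mt-Co2, beside 8.03% of all genes, and lower were mt-Atp8 and mt-Co3, beside 5.7%. Over 2-fold there were 0 members, beside 1.67% of all genes. No test was made of this count.

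For mt-Nd6 the counts were 3560 and 4764, which is 1.42-fold higher in replicate 2 (log2 ratio 0.50, 95% counting interval 0.44 to 0.57), and by the direct quantification it was 1.66-fold higher. It was the only member beyond 0.32 in the same direction by both. mt-Atp8, at 10428 and 7487 counts, was 1.31-fold lower in replicate 2 (log2 ratio -0.39, interval -0.44 to -0.35), and the direct quantification gave it no counts. With ERCC spike-ins as the scale its log2 ratio was -0.315, inside the limit of 0.322, so that 3 members were beyond it. The differences of mt-Co3 (log2 ratio -0.72, interval -0.75 to -0.69) and mt-Co2 (0.36, interval 0.24 to 0.49) were -0.056 and -0.073 once copies were added. By the direct quantification the log2 ratio was -0.041 for mt-Co3 and -0.50 for mt-Co2, both outside the intervals given. The intervals cover counting error only. They cover neither the spread between animals nor the uncertainty of sharing reads between a gene and its copies. The epidermal, Schwann cell and fat markers given above also differed between these libraries, and their part in the mitochondrial differences was not tested.

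**Figure D4:**
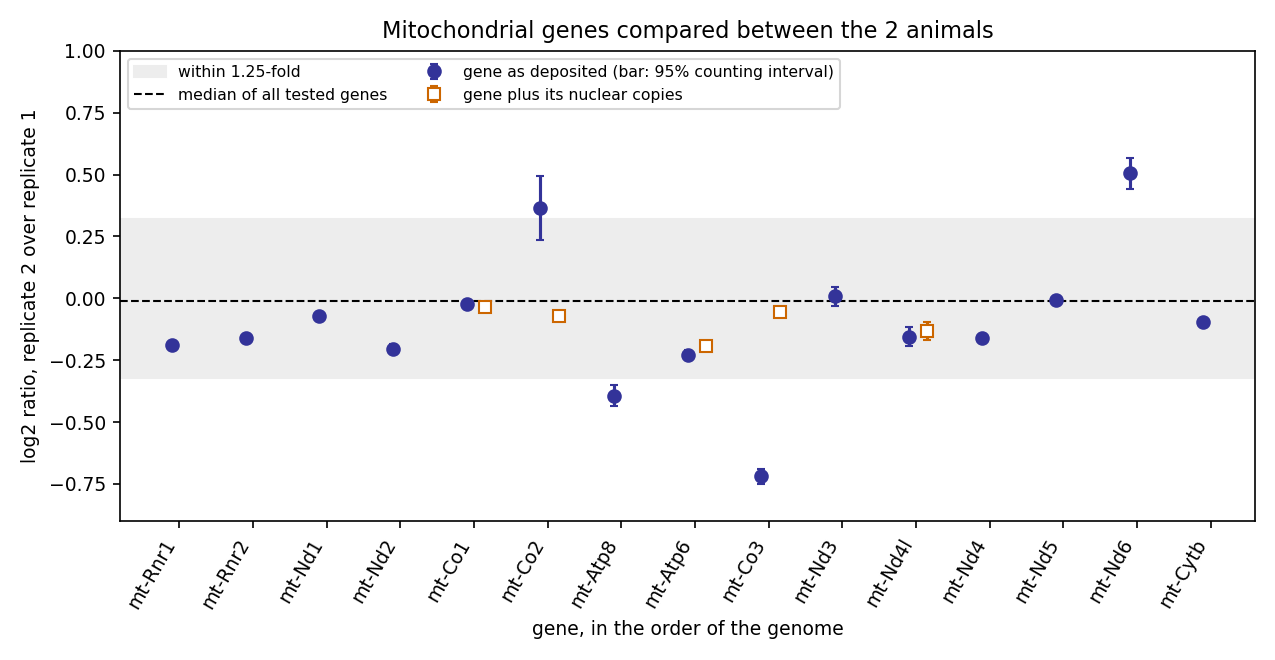
Log2 ratio of replicate 2 to replicate 1 after TMM scaling for the 15 rRNA and mRNA genes in genome order; circles are deposited genes with 95% counting intervals, open squares the gene plus its nuclear copies, the band log2 ratios within 0.32 and the dashed line the median of all 12421 genes tested. Outside the band are mt-Nd6 and mt-Co2 above and mt-Atp8 and mt-Co3 below, and the squares of mt-Co2 and mt-Co3 lie inside it.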

How the data were processed

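The deposited gene tables hold expected counts and posterior mean counts with RSEM's column names, per the file headers. The sources used here do not name an aligner or program. The deposited TPM divides by an effective length of the length less 99 nt. A second deposited table holds estimated counts and TPM under kallisto's column names, per the file headers. Build mm10 and annotation GENCODE M21 come from the submitters' notes. Of 81881 entries, 26345 name no annotated gene and were left out: 96 ERCC controls (0.650% and 0.635% of counts) and others, with 0.00015% and 0.00017%.

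The 37 members, the 5 gene lists and 9 marker lists were chosen with earlier results of these data known. Named were all rRNA and mRNA members, nuclear copies with a mean count of 1000 or more, the highest and lowest nuclear subunit of each complex and the 2 highest and 2 lowest processing genes. The other copies on chromosome 1 were named after their values were seen. Copies were found with blastn 2.17.0 among the M21 transcripts. Counts were scaled with edgeR 4.0.16 (R 4.3.3) over genes averaging at least 10 counts, with a prior count of 0.5; DESeq2 1.42.0 size factors were an alternative. Log2 ratios of TPM used a pseudocount of 0.1. Counting intervals (95%, Clopper-Pearson) describe how a gene's counts divide between libraries, and cover counting error only. They were tested on simulated counts drawn independently for each gene, with counting error alone. That test cannot judge the intervals of genes whose reads are shared with copies. Depth per library was 35281187 and 32301531 expected counts.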

Additional observations from a re-analysis of the deposited data

How the results depend on the processing

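The report's 19 main values were recomputed under 129 alternatives: 56 were scored as moving a value and 6 as turning its direction. The limit for a move was the SD of the pair for values given as mean ± SD. For summed ratios between the pups it was the counting interval, and for counts of members a fold limit. The interval of summed rRNA is narrow, at -0.171 to -0.166, so even a small shift was scored as a move. The 129 include leaving out each replicate in turn, for the values given as mean ± SD. Each replicate's value always lies within the SD of the pair, so these alternatives could not count as moved. Their outcome holds no information on stability. The cause of the moves and turns was not tested, except that adding copies or changing the length changes the counts or the divisor by construction. The mitochondrial share of counts was 10.01% from TPM, 10.7% with copies added and 10.4% without small structural RNAs and Gm26917. The rRNA and mRNA shares were 69.7% and 30.3% from TPM, 67.5% and 32.5% with copies added, and 74.5% and 25.5% from posterior means. The log2 ratio of mt-Rnr2 to mt-Rnr1 was 0.85 by the direct quantification, 1.495 for counts not divided by length and 0.77 for counts per full length. Summed mRNA was 46325 TPM by the direct quantification, 51410 TPM with copies and 31899 TPM from posterior means. The shares of complexes I, III, IV and V were 30.8%, 13.05%, 33.9% and 22.3% by the direct quantification. They were 24.99%, 7.32%, 44.9% and 22.8% with copies. Counts not divided by length gave 40.3%, 14.3%, 39.3% and 6.11%, and counts per full length gave 13.6% for III, 29.4% for IV and 14.0% for V. Posterior means gave 38.7% for I, 11.5% for III and 31.8% for IV.

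The log2 ratio of mt-Nd6 to the median heavy-strand mRNA was -2.03 by the direct quantification, -3.19 for counts not divided by length and -3.24 with copies. That of mt-Atp8 to mt-Atp6 turned to -2.13 for counts not divided by length, -0.39 per full length and -1.55 with copies, and was 0.054 from posterior means. That of mt-Nd4l to mt-Nd4 turned to -2.65, -0.44 and, from posterior means, -0.083, and was 0.052 with copies. Neither pair has a value by the direct quantification, which lists mt-Atp8 and mt-Nd4l at or near 0. The rRNA to mRNA log2 ratio was 4.39 by the direct quantification, 5.02 for counts not divided by length, 4.28 per full length and 3.39 with copies. The mRNA to nuclear subunit log2 ratio was 3.03, 3.83, 3.30 and 4.02 in the same order. In the direct quantification the mRNA medians of these ratios include mt-Atp8, mt-Nd3 and mt-Nd4l, which it lists at or near 0. The pseudogene share of the summed counts of copies and matched genes was 23.1% by the direct quantification and 35.4% from posterior means.

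Between the pups, the log2 ratio of summed rRNA was -0.17 with DESeq2 size factors, -0.13 with total counts and -0.090 with ERCC counts, and that of summed mRNA was -0.045 with total counts, -0.0099 with ERCC counts and -0.083 with copies. Of 15 genes, 4 turned direction: mt-Nd1 (0.0084 with ERCC), mt-Co1 (0.018 with total counts, 0.053 with ERCC), mt-Nd5 (0.037, 0.072 and, by the direct quantification, 0.0021) and mt-Co2 (-0.50 by the direct quantification, -0.073 with copies). Members beyond a log2 ratio of 0.32 numbered 2 with copies, 3 with ERCC counts, where mt-Atp8 dropped out, and 2 by the direct quantification, where 12 genes had enough counts. Copies added to summed levels, class shares, gene ratios and counts of members, posterior means, and the direct quantification for pseudogenes and for counts of members were chosen after seeing the data. Summed tRNA has no ratio, since all are at 0. Leaving out either replicate gave the other replicate's value, and the ranges were 9.15% to 9.85% for the mitochondrial share, 75.2% to 76.2% for its rRNA, 0.69 to 0.72 for the rRNA log2 ratio and -2.91 to -2.24 for mt-Nd6. No paired analysis was possible because there is only 1 group. Depth did not limit the rRNA and mRNA genes, whose lowest deposited count was 898.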

Other observations

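Outside the mitochondrial genome, the nuclear ATP synthase ring subunit Atp5g2 also had a level that depended on the quantification, at 12.04 and 10.12 TPM by alignment against 465 TPM on average by the direct quantification. The list of mitochondrial transcription and RNA processing genes, which also holds the replication genes named above, had 27 genes tested. Of these, 6 were lower in replicate 2 by a log2 ratio beyond 0.32 and 0 were higher. By the same limit 5.7% of all genes tested were lower and 8.03% higher. Among the 75 nuclear subunit genes tested, 1 was lower and 0 were higher. These counts are a description of 2 libraries and were not tested.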
